A study of Mus musculus with 6 samples.

Results

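The genes described here are 10 enzymes and transporters that carry glucose carbon into the macrophage, through glycolysis and out again as lactate: *Slc2a1*, *Hk1*, *Hk2*, *Pfkl*, *Pfkp*, *Aldoa*, *Pgk1*, *Pkm*, *Ldha* and *Slc16a3*. They were chosen by name, with earlier results of these data known, out of the 36137 mouse genes to which the deposited transcripts were matched. Bone marrow-derived macrophages (BMDMs) were grown for 7 days in medium with L929 cell supernatant and then kept for 8 hours in serum-free medium at 2.1% oxygen, a treatment called hypoxia serum starvation (HSS). Poly(A) RNA of these cells was sequenced in 3 libraries from WT and 3 from Drp1 KO cultures. Here WT means LysM-Cre+/- Drp1+/+ and Drp1 KO means LysM-Cre+/- Drp1 fl/fl, so that both groups carry the Cre recombinase driven by the lysozyme M promoter, which is active in myeloid cells. The Cre line is on a C57BL/6J background, the mice were adults of both sexes, and marrow of more than 1 mouse was pooled for each genotype. The group size is given as 3 without saying whether these were separate pools or cultures, so p-values measure the spread between these libraries, which may be in part technical. All libraries are from HSS, and a response to HSS was not measured.

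Glycolysis splits glucose into pyruvate in the cytosol and yields ATP without oxygen. Hypoxia-inducible factor 1 raises the transcription of many of its enzymes in cells short of oxygen, and lactate dehydrogenase then regenerates NAD+ by turning pyruvate into lactate. Macrophages that respond to inflammatory signals are known for a high rate of this pathway. *Drp1*, whose mouse gene symbol is *Dnm1l*, encodes the dynamin-related GTPase that divides mitochondria, the organelles that would otherwise oxidize pyruvate.

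Levels are given on 2 scales. CPM is the estimated read count of a gene relative to the size of its library, scaled by TMM normalization, and it serves to compare libraries. TPM is the deposited value that also allows for transcript length, added per gene, and it serves to compare genes. Libraries held 23389488 to 32231206 estimated reads, and each of the 10 genes had at least 10954 of them in each group. Counting error was not set against the spread between libraries gene by gene. Fold changes set Drp1 KO against WT on the log2 scale and come from edgeR's quasi-likelihood test over the 18506 genes with at least 10 counts in total. Libraries 1 of both groups stood apart from the others, with 0.297% and 0.342% of their counts on mitochondrially encoded genes against 0.494% to 0.690% in the other 4 libraries. Macrophage markers were high in all libraries, *Lyz2* at 8173 to 9961 CPM and *Adgre1* at 1210.3 to 1587 CPM. The summed level of 8 neutrophil markers was 6.34 to 18.9 CPM in WT libraries and 18.3 to 44.3 CPM in the Drp1 KO ones, with *Ly6g* at 0 in each, and its part in the results was not tested. The targeted gene, *Dnm1l*, was at 69.9 to 75.1 CPM in WT libraries, beside 58.7 to 66.3 CPM in the Drp1 KO ones, a log2 fold change of -0.23 (SE 0.092, adjusted p = 0.248, edgeR). A count per gene holds no information on single exons, so this level is a weak check of the deletion.

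No gene of the 10 passed an adjusted p of 0.05 in edgeR's test, where 3.36% of all genes tested did. Of these 10, *Hk1*, *Pfkl* and *Pkm* had an unadjusted p under 0.05, and each was lower in Drp1 KO BMDMs. Among all genes tested, 7.39% had such a p and were lower. Since these are whole cultures, fewer cells of a type and less RNA per cell cannot be told apart. With 8 of the 10 lower and 2 higher, the median log2 fold change was -0.17, beside 0.0046 over all genes tested, of which 49.4% were lower. By the study's own criteria, a minimum fold together with an unadjusted p, 0 of the 10 were called, against 12.7% of all genes. In CPM, all levels of 5 genes (*Hk1*, *Pfkl*, *Pfkp*, *Pgk1* and *Pkm*) were lower in the Drp1 KO than in the WT libraries, which was so for 10.3% of all genes. Once the group means were taken out, WT and Drp1 KO libraries of the same number had correlations of 0.510, 0.204 and 0.298, while WT library 2 and Drp1 KO library 3 had 0.326, so that libraries 1 alone stood out as a pair. When libraries of the same number were treated as pairs, edgeR called 3 of the 10, all lower: *Hk1* (adjusted p = 0.0265), *Pfkl* (0.0232) and *Pkm* (0.0378). In that paired fit 12% of all genes were called. With the pairing and a correction for GC content together, the 3 had adjusted p-values of 0.0591, 0.0735 and 0.115 (edgeR) and none of the 10 was called, against 10.8% of all genes. Their log2 fold changes went from -0.30 to -0.25 for *Hk1*, from -0.28 to -0.22 for *Pfkl* and from -0.25 to -0.19 for *Pkm*. DESeq2's Wald test without pairs called *Pfkl* alone (adjusted p = 0.0388), against 6.24% of all genes.

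**Figure D1:**
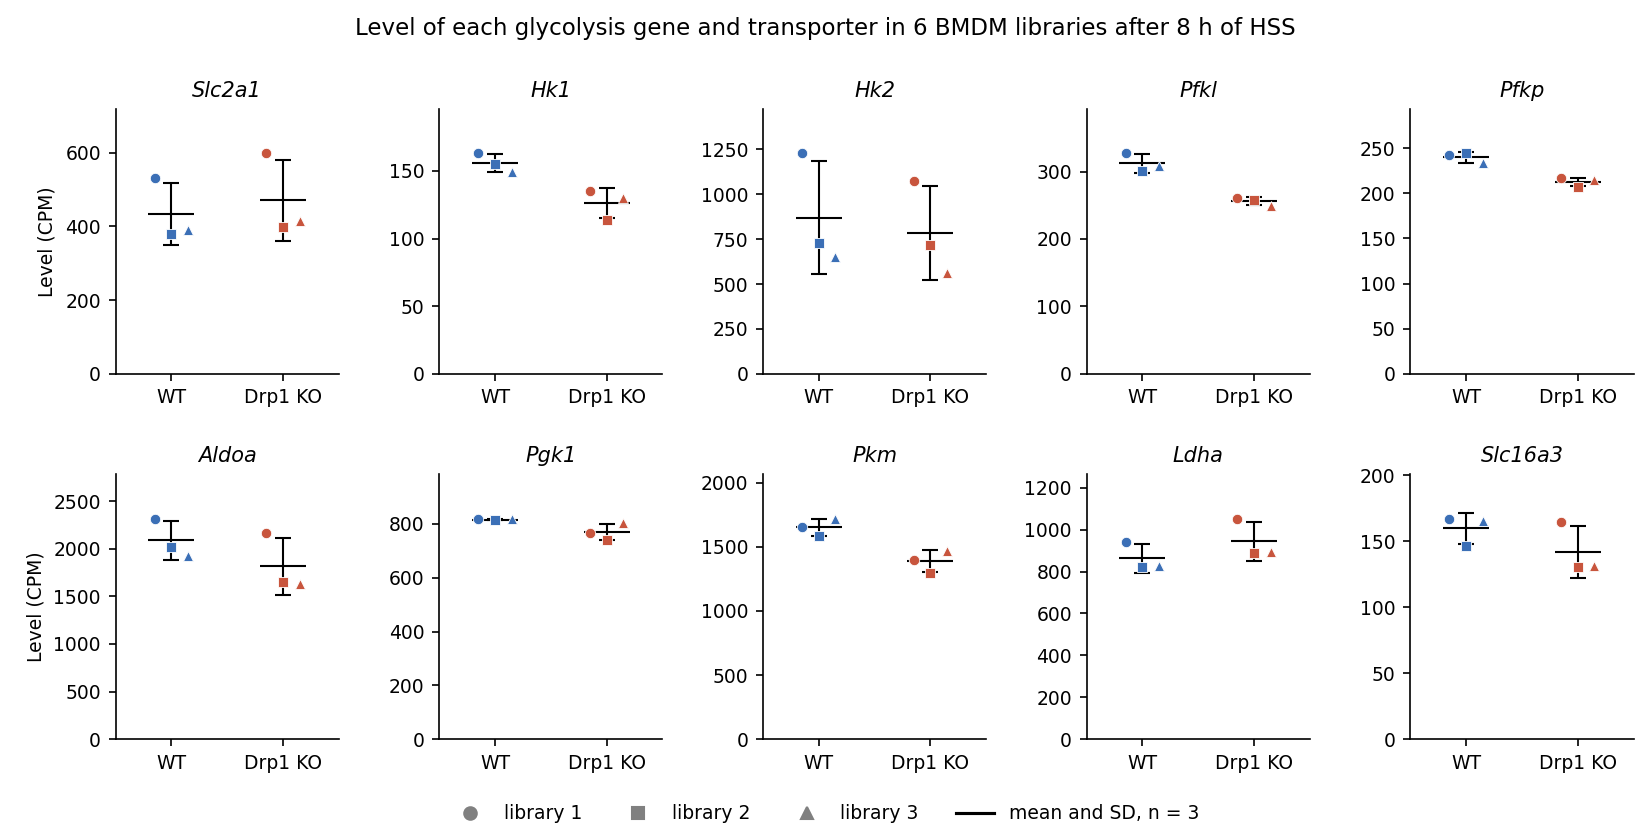
Level of each of the 10 genes (y axis, CPM from 0) in the 3 WT (blue) and 3 Drp1 KO (red) libraries (x axis), with the symbol giving the library number and bars the mean and SD. Library 1 is the highest of its group for 7 of the 10 genes in both groups, with the widest gap in *Hk2*, and the red points of *Hk1*, *Pfkl*, *Pfkp*, *Pgk1* and *Pkm* all lie under the blue ones.

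Per length, the 10 genes differed widely in level. In WT BMDMs the order in TPM was *Aldoa* (2034 ± 121, SD, n = 3), *Pkm* (1037 ± 63.6), *Ldha* (1025 ± 50.5), *Pgk1* (704 ± 32.2), *Hk2* (225 ± 70.4), *Slc2a1* (207 ± 34.0), *Pfkp* (127 ± 3.02), *Slc16a3* (114 ± 6.98), *Pfkl* (109.7 ± 7.23) and *Hk1* (61.9 ± 1.84). The ranges over the 3 WT libraries overlapped between *Pkm* and *Ldha*, between *Hk2* and *Slc2a1* and between *Slc16a3* and *Pfkl*, so these neighbours did not differ beyond their spread. Among the 10 genes, *Aldoa*, *Pkm*, *Ldha* and *Pgk1* thus stood above the transporters and the enzymes that phosphorylate hexoses. Added together, the 10 genes took 5899, 5366 and 5670 TPM in WT libraries 1 to 3 and 5176, 4554 and 4812 TPM in Drp1 KO libraries 1 to 3. The groups did not overlap, with Drp1 KO lower by 14.1% of the WT mean (p = 0.1 in a two-sided exact permutation test, which cannot go lower with 3 against 3). Genes of high level weigh most in such a sum, and *Aldoa* alone had a mean of 2034 TPM in WT and 1626 TPM in Drp1 KO BMDMs. The summed CPM did overlap, at 7180.2 to 8387 in WT libraries and 6412 to 7827 in the Drp1 KO ones (exact permutation test without pairs, two-sided p = 0.3), although it was lower in Drp1 KO in all 3 pairs of libraries with the same number. In TPM, 6 of the 10 genes were lower in all Drp1 KO libraries, which were *Hk1*, *Pfkl*, *Pfkp*, *Aldoa*, *Pkm* and *Slc16a3*, against 14.5% of all genes on that scale.

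**Figure D2:**
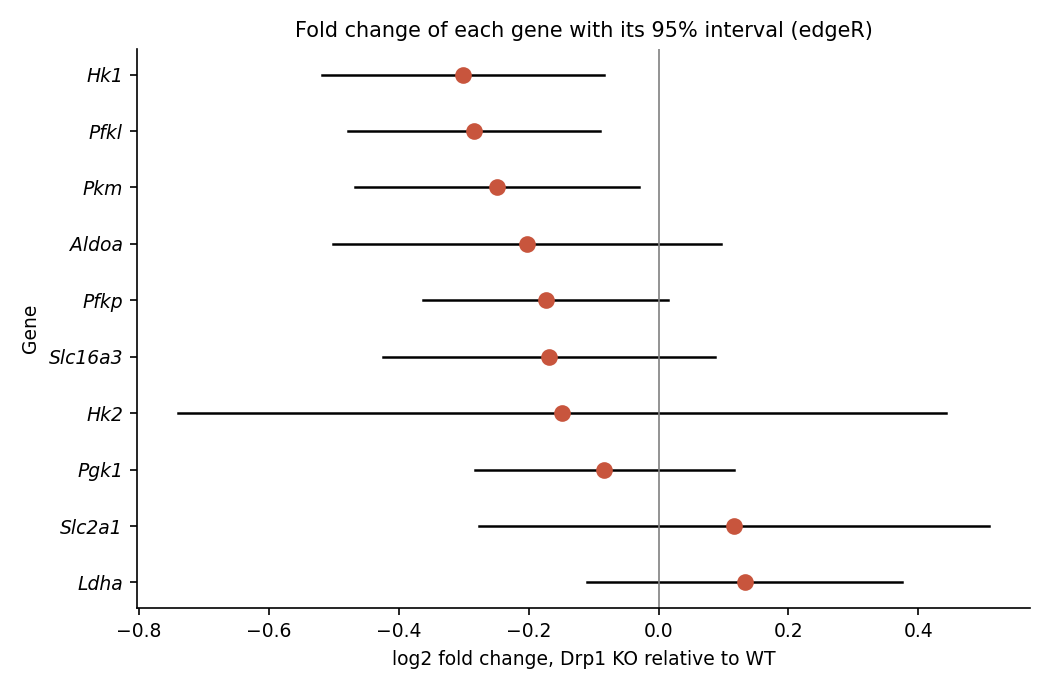
Log2 fold change of Drp1 KO relative to WT (x axis) for each of the 10 genes (y axis), with points for edgeR's estimate and lines for its 95% interval. The intervals of *Hk1*, *Pfkl* and *Pkm* lie under 0, those of the other 7 genes include 0, and only *Slc2a1* and *Ldha* have estimates above 0.

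Glucose enters the cell through *Slc2a1*, the gene of the facilitative transporter GLUT1 (ENSMUSG00000028645, GRCm39 chromosome 4, 118965908 to 118996365). Its level was 531, 380.1 and 390.5 CPM in WT libraries 1 to 3 and 598, 399 and 415 CPM in Drp1 KO libraries 1 to 3. Library 1 was the highest of both groups, and the groups overlapped. The log2 fold change was 0.12 (SE 0.18, 95% interval -0.28 to 0.51, adjusted p = 0.836, edgeR), and leaving out single libraries moved it from -0.10 (without Drp1 KO library 1) through 0.011 (without WT library 2) and 0.031 (without WT library 3) to 0.29 (without WT library 1). Each Drp1 KO library was 1.05 to 1.13 times the WT library of the same number. *Slc2a1* took 96.8% ± 0.309 of the summed TPM of the class I glucose transporters in WT and 96.8% ± 0.324 in Drp1 KO BMDMs (SD, n = 3), with *Slc2a3*, a transporter of high affinity, at 3.07% and 3.04%. The genes *Slc2a2* and *Slc2a4*, known from liver and muscle, held under 1% of it in each library.

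Hexokinases trap glucose as glucose 6-phosphate, and *Hk1* and *Hk2* encode the forms that can bind the outer mitochondrial membrane. *Hk1* (ENSMUSG00000037012, chromosome 10, 62104621 to 62215687) was at 163, 155 and 149 CPM in WT and 135, 114 and 130.4 CPM in Drp1 KO libraries. All Drp1 KO levels lay under all WT levels, and the log2 fold change was -0.30 (SE 0.098, 95% interval -0.52 to -0.08, unadjusted p = 0.0114, adjusted p = 0.143, edgeR), or 18.8% lower. With counts scaled by transcript length it was -0.17 (adjusted p = 0.618, edgeR). Its most abundant transcript, *Hk1*-205, took 48.5% to 60.1% of the TPM of the gene in WT libraries and 42.6% to 45.8% in the Drp1 KO ones.

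*Hk2* (ENSMUSG00000000628, chromosome 6, 82699740 to 82751469) encodes the inducible hexokinase of muscle, tumours and activated immune cells. Its level varied more between libraries than that of any other of the 10 genes, at 1227, 729 and 648 CPM in WT and 1072, 719 and 559 CPM in Drp1 KO libraries. Library 1 exceeded the mean of the other libraries of its group 1.78 times in WT and 1.68 times in Drp1 KO, the libraries with the lowest mitochondrial share, and what part that share has was not tested. The log2 fold change was -0.15 (SE 0.27, 95% interval -0.74 to 0.44, adjusted p = 0.867, edgeR). It turned positive, at 0.18, without WT library 1 and at 0.050 without Drp1 KO library 3. Within the hexokinase family, *Hk2* held 50.8% ± 7.20 of the TPM in WT and 48.9% ± 4.85 in Drp1 KO BMDMs, *Hk3* 34.7% ± 5.35 and 37.4% ± 3.52, and *Hk1* 14.4% ± 1.84 and 13.7% ± 1.56 (SD, n = 3). *Hkdc1* held at most 0.00730% in any library. Each of these shares overlapped between the groups (exact permutation tests, two-sided p from 0.6 to 1.0). With 3 libraries a group these tests cannot go under 0.1, so they cannot show that the shares were the same.

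The annotation gives *Hk2* 2 long coding transcripts that differ at both ends, and the sequence that tells them apart at the start of the protein is shown because one of them was the only transcript of the 10 genes that edgeR's test called. *Hk2*-201 (ENSMUST00000000642.11) starts with an exon of 554 bases (chr6:82750899-82751452, minus strand), of which the last 63 bases are coding. *Hk2*-204 (ENSMUST00000170833.2) starts 1108 bases further downstream, in the intron after that exon, with a noncoding exon of 101 bases (chr6:82750244-82750344), and joins the same exon 2. Its annotated coding sequence begins at a later ATG in the same frame and so lacks the leading 84 bases, or 28 codons, of the *Hk2*-201 coding sequence. The start of the *Hk2*-201 coding sequence, read from the GRCm39 transcripts of GENCODE, covers chr6:82750899-82750961 in exon 1 and chr6:82737221-82737247 in exon 2, and its capitals mark the start codon of *Hk2*-201 and then that of *Hk2*-204.
*Hk2* coding start: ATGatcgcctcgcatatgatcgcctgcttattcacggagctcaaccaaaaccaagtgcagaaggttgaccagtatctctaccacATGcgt
Both transcripts have 18 exons. *Hk2*-204 ends at its stop codon and has 2792 bases, while *Hk2*-201 is listed at 5513 bases in the deposited files and at 7796 bases in the annotation used here. Of the 2762 runs of 31 bases in *Hk2*-204, the unit by which kallisto assigns reads, 101 occur in no other annotated transcript, so its estimate rests on reads over a short stretch.

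*Hk2*-204 was assigned 2722, 2475 and 2144 reads in WT and 242, 347 and 230 reads in Drp1 KO libraries. In TPM it was at 50.9, 40.5 and 34.1 in WT and at 4.46, 4.42 and 3.07 in Drp1 KO libraries, so the lowest WT library stood far above the highest Drp1 KO library. In a fit of all 62020 transcripts with at least 10 counts, made after these values had been seen, its log2 fold change was -3.31 (SE 0.25, adjusted p = 0.0164, edgeR), or 9.92-fold lower with a 95% interval of 6.54 to 15.0. Of all transcripts tested, 0.332% were called. When libraries of the same number were treated as pairs, its adjusted p was 0.0710 (edgeR) at a log2 fold change of -3.31, and 0% of all transcripts were called. The call was also lost when WT library 2 was left out (adjusted p = 0.0785, edgeR), and likewise for Drp1 KO library 2 (0.0775) or 3 (0.0691), although over all 6 such fits the log2 fold change ran only from -3.46 to -3.11. *Hk2*-201 was at 254, 146 and 142 TPM in WT and 229, 156 and 126 TPM in Drp1 KO libraries, with a log2 fold change of -0.01 (SE 0.33, adjusted p = 0.997, edgeR). *Hk2*-204 made up 19.0% ± 2.25 of the *Hk2* TPM in WT and 2.14% ± 0.303 in Drp1 KO BMDMs (SD, n = 3). How reads that fit both transcripts were divided is kallisto's estimate, and no reads over the start exons were analysed here. The 2 short transcripts of the gene, *Hk2*-202 and *Hk2*-203, had at most 155 reads in a library. Per length, *Hk2*-202, of 594 bases, was at 0, 3.21 and 0 TPM in WT and 0, 16.9 and 19.8 TPM in Drp1 KO libraries. In Drp1 KO libraries 2 and 3 it thus stood above *Hk2*-204, and it is part of the *Hk2* TPM.

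**Figure D3:**
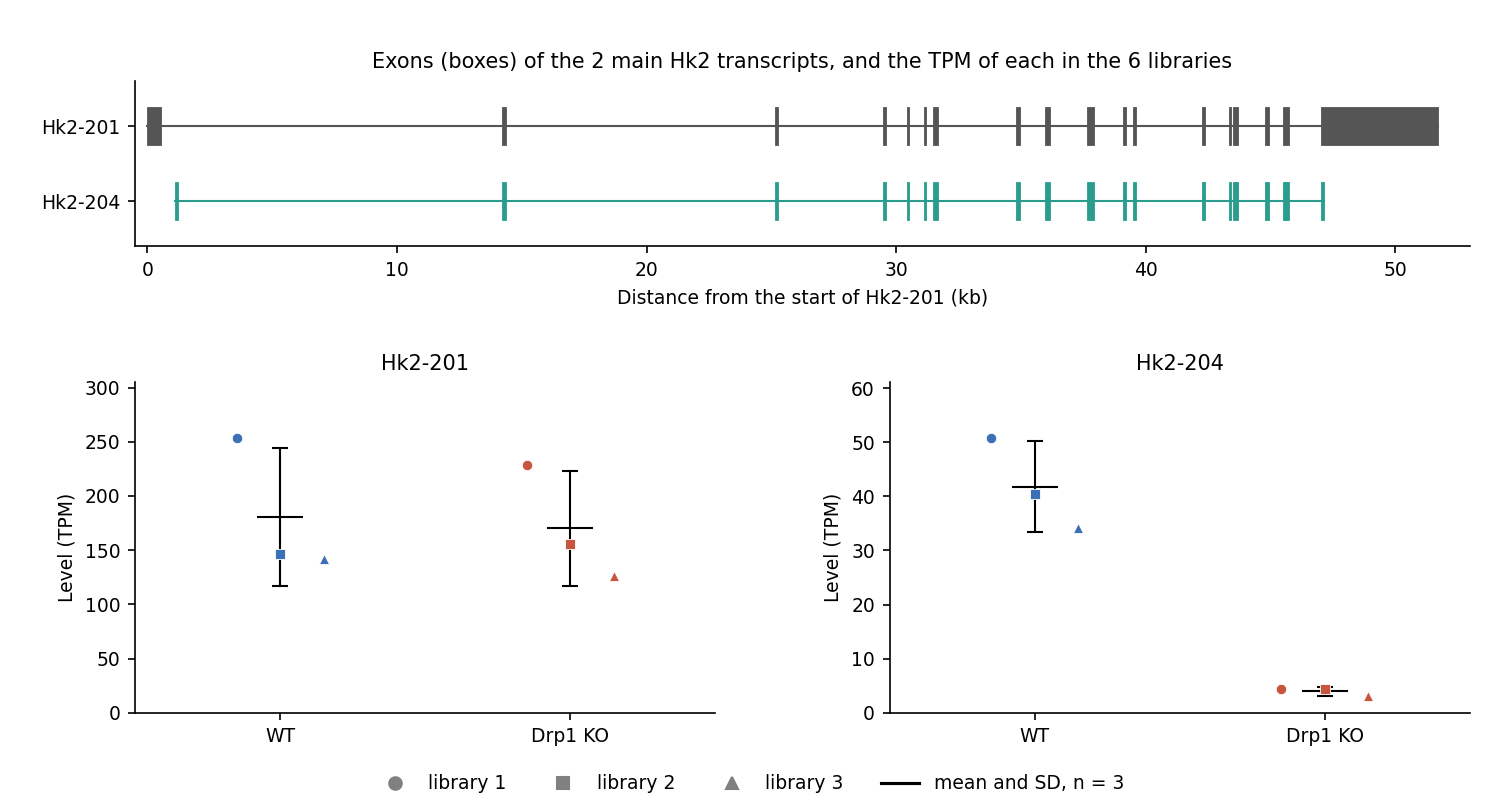
Top, exons of *Hk2*-201 and *Hk2*-204 as boxes, with the distance from the start of *Hk2*-201 in kb on the x axis. Bottom, TPM of each transcript (y axis from 0) in the 3 WT (blue) and 3 Drp1 KO (red) libraries with mean and SD: the groups interleave for *Hk2*-201, and for *Hk2*-204 the WT libraries lie at 34.1 or above and the Drp1 KO libraries at 4.46 or below.

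Phosphofructokinase makes fructose 1,6-bisphosphate in the committed step of glycolysis, as tetramers of the liver (*Pfkl*), platelet (*Pfkp*) and muscle (*Pfkm*) subunits. *Pfkl* (ENSMUSG00000020277, chromosome 10, 77818084 to 77845922) was at 327, 301 and 308 CPM in WT and 261, 258 and 249 CPM in Drp1 KO libraries. The groups were clearly apart, and *Pfkl* had the smallest p of the 10 genes, with a log2 fold change of -0.28 (SE 0.087, 95% interval -0.48 to -0.09, unadjusted p = 0.00842, adjusted p = 0.122, edgeR), or 17.9% lower. *Pfkp* (ENSMUSG00000021196, chromosome 13, 6629798 to 6698970) was at 243, 244 and 233 CPM in WT and 216, 208 and 215 CPM in Drp1 KO libraries. These groups did not overlap either, and the log2 fold change was -0.17 (SE 0.085, unadjusted p = 0.0666, adjusted p = 0.348, edgeR). *Pfkp* shares 754 aligned bases of transcript with the opposite-strand gene *Pitrm1*, at 97.3 ± 3.69 and 84.6 ± 6.50 CPM, and since no source says whether kallisto used the strand of the reads, the 2 genes cannot be told apart over that stretch. *Pfkl* held 45.3% ± 2.16 of the phosphofructokinase TPM in WT and 43.7% ± 0.645 in Drp1 KO BMDMs, *Pfkp* 52.5% ± 2.13 and 54.1% ± 0.638, and *Pfkm* 2.14% ± 0.0811 and 2.20% ± 0.181 (SD, n = 3). For each of these subunits the shares of the groups overlapped (exact permutation tests, two-sided p = 0.4 for *Pfkl* and *Pfkp* and 0.8 for *Pfkm*). With 3 libraries a group such a test cannot go under 0.1, so it cannot show that the mixture was the same.

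**Figure D4:**
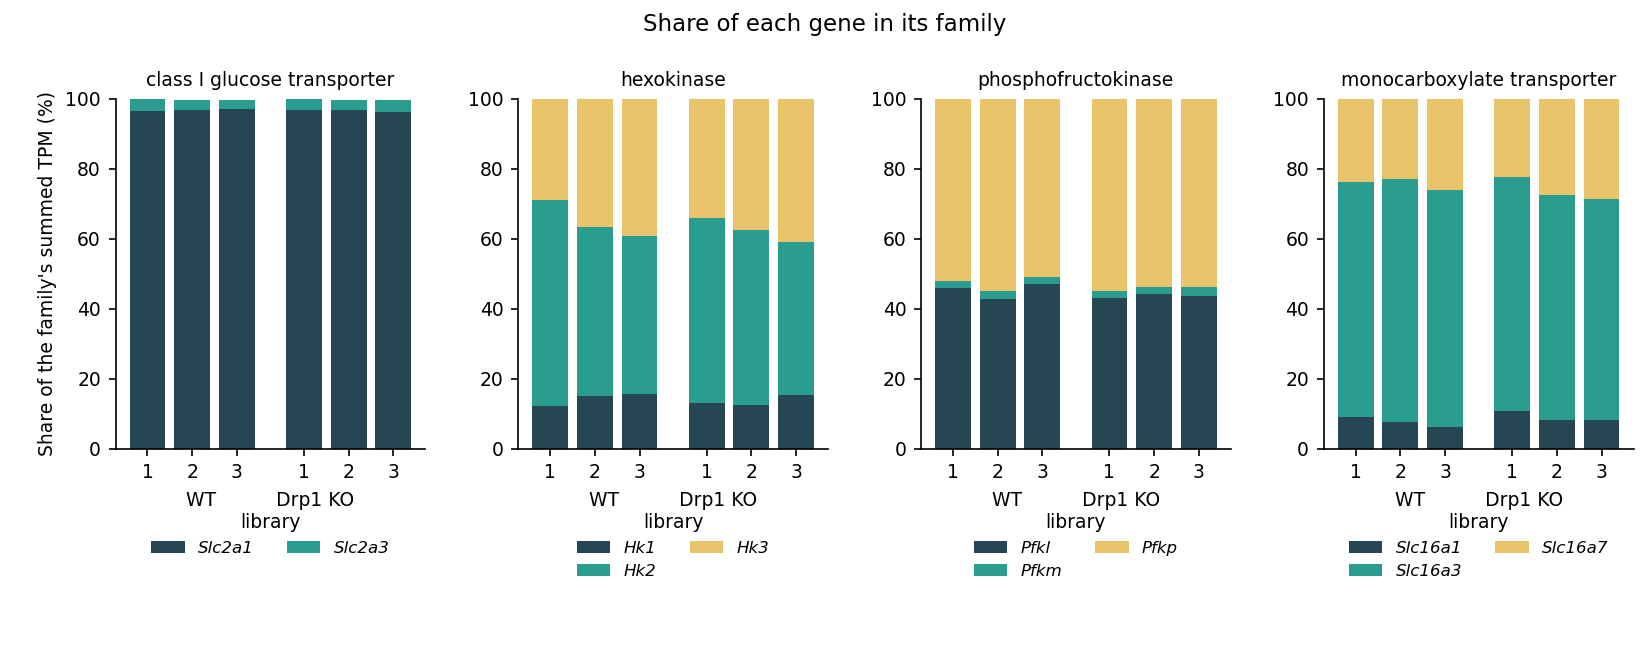
Share of each gene in the summed TPM of its family (y axis, 0 to 100%) in each of the 6 libraries (x axis), for 4 families, with colours for the genes that reach 1% in at least 1 library. *Slc2a1* fills over 96% of its family in each library, the hexokinases split mainly between *Hk2* and *Hk3*, and *Pfkp* holds more than *Pfkl* in each library.

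*Aldoa* (ENSMUSG00000030695, chromosome 7, 126393822 to 126399923), the aldolase that cleaves fructose 1,6-bisphosphate, had the highest TPM of the 10 and ranked 50 among all genes. Its level was 2316, 2022 and 1924 CPM in WT and 2159, 1655 and 1626 CPM in Drp1 KO libraries. Drp1 KO library 1 fell within the WT range, and the log2 fold change was -0.20 (SE 0.13, adjusted p = 0.523, edgeR). It was -0.36 when Drp1 KO library 1 was left out, -0.12 when WT library 1 was and -0.13 when Drp1 KO library 3 was. *Aldoa* was 99.2% of the aldolase TPM in WT and 99.0% in Drp1 KO BMDMs, with *Aldoc* at 0.755% and 0.967%. *Pgk1* (ENSMUSG00000062070, chromosome X, 105230706 to 105247305), the phosphoglycerate kinase that makes ATP in the lower part of the pathway, was the steadiest of the 10 genes among WT libraries in CPM, but not in TPM. It was at 819.7, 813 and 816 CPM in WT and 767, 742 and 803 CPM in Drp1 KO libraries. In CPM the groups did not overlap, but they did in TPM, at 680.8 to 741 in WT libraries and 601 to 684 in the Drp1 KO ones. The log2 fold change of *Pgk1* was small at -0.08 (SE 0.089, 95% interval -0.28 to 0.12, adjusted p = 0.736, edgeR) and -0.051 when Drp1 KO library 2 was left out. Its testis copy, *Pgk2*, had 0 counts in each library.

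*Pkm* (ENSMUSG00000032294, chromosome 9, 59563364 to 59586663) encodes the pyruvate kinase of most tissues, which makes pyruvate and ATP. Its level was 1652, 1584 and 1721 CPM in WT and 1400.3, 1299 and 1471 CPM in Drp1 KO libraries. The highest Drp1 KO level was under the lowest WT level, and the log2 fold change was -0.25 (SE 0.098, 95% interval -0.47 to -0.03, unadjusted p = 0.0292, adjusted p = 0.236, edgeR), or 15.9% lower. *Pkm* made up at least 99.3% of the pyruvate kinase TPM of each library, and *Pklr*, the liver and red cell gene, the rest.
The gene makes PKM1 and PKM2 by a choice between 2 exons of 167 bases, and both are shown because the files list a transcript with each. They are exon 9 of the 11 in their transcripts, and 64 of their bases differ, so that 61.7% are identical. The exon of *Pkm*-201, the PKM2 form found in macrophages and growing cells, lies at chr9:59582851-59583017 and that of *Pkm*-202, the PKM1 form of muscle and brain, at chr9:59582312-59582478, both on the plus strand of GRCm39. Capitals mark the bases that differ.
Exon of *Pkm*-201: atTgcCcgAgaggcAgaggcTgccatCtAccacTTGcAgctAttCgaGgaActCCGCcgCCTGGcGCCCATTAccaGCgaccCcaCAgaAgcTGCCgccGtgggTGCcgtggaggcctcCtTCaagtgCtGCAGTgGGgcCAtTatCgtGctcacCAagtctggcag
Exon of *Pkm*-202: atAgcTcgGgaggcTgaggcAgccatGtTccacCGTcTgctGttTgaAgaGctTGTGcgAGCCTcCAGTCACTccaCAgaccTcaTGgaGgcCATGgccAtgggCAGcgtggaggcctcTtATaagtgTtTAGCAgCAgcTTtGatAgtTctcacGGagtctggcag
*Pkm*-201 was at 641, 589.9 and 689 TPM in WT and 521, 499 and 586 TPM in Drp1 KO libraries. *Pkm*-202 was at 168, 179 and 232 TPM in WT and 120.2, 103 and 128 TPM in Drp1 KO libraries, with a log2 fold change of -0.64 (SE 0.13, adjusted p = 0.125, edgeR, fitted over all transcripts). Of the TPM of both, *Pkm*-202 held 20.8%, 23.3% and 25.2% in WT and 18.7%, 17.1% and 17.9% in Drp1 KO libraries. The groups did not overlap, and the mean share was 23.1% ± 2.22 in WT and 17.9% ± 0.801 in Drp1 KO (SD, n = 3, two-sided exact permutation test, p = 0.1). This share was also looked at after its values had been seen, and the other *Pkm* transcripts, some of them without either exon, were left out of it.

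*Ldha* (ENSMUSG00000063229, chromosome 7, 46490899 to 46505061) encodes the lactate dehydrogenase subunit that favours lactate formation. It was at 941, 821 and 825 CPM in WT and 1053, 889 and 895 CPM in Drp1 KO libraries. Each Drp1 KO library was 1.08 to 1.12 times the WT library of the same number, the groups overlapped, and the log2 fold change was 0.13 (SE 0.11, 95% interval -0.11 to 0.38, adjusted p = 0.636, edgeR). Per length it turned the other way in all 3 pairs with the same number, and its mean was 1025 ± 50.5 TPM in WT and 999 ± 45.5 TPM in Drp1 KO BMDMs (SD, n = 3), and counts scaled by transcript length gave a log2 fold change of 0.048. The log2 fold change was also smaller without Drp1 KO library 1 (0.038), WT library 2 (0.081) or WT library 3 (0.088). *Ldhb*, the heart-type subunit that favours lactate use, was at 7.81, 7.20 and 8.38 CPM in WT and 5.81, 3.42 and 5.24 CPM in Drp1 KO libraries. All Drp1 KO levels of *Ldhb* were lower, with a log2 fold change of -0.70 (SE 0.20, unadjusted p = 0.00634, adjusted p = 0.104, edgeR), and it was called in the paired fit (adjusted p = 0.0115, edgeR). *Ldha* held 99.1% ± 0.109 of the lactate dehydrogenase TPM in WT and 99.5% ± 0.13 in Drp1 KO BMDMs (SD, n = 3, exact permutation test, two-sided p = 0.1).

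*Slc16a3* (ENSMUSG00000025161, chromosome 11, 120838846 to 120851694) encodes MCT4, the transporter that exports lactate with a proton from cells with active glycolysis. It was at 167, 146 and 166 CPM in WT and 165, 130.2 and 131 CPM in Drp1 KO libraries. Drp1 KO library 1 lay within the WT range, and the log2 fold change was -0.17 (SE 0.12, 95% interval -0.42 to 0.09, adjusted p = 0.539, edgeR). It was -0.30 without Drp1 KO library 1, -0.10 without Drp1 KO library 2, -0.11 without Drp1 KO library 3 and -0.11 with the GC correction. In TPM the groups did not overlap, at 107 to 121 in WT libraries and 88.6 to 101 in the Drp1 KO ones. Its transcript shares 835 aligned bases with *Csnk1d* on the opposite strand, at 68.9 ± 2.50 and 72.0 ± 8.26 CPM, and reads over that stretch cannot be told apart. Among the monocarboxylate transporters *Slc16a3* held 68.0% ± 1.15 of the TPM in WT and 64.9% ± 1.9 in Drp1 KO BMDMs, without overlap (SD, n = 3, exact permutation test, two-sided p = 0.1). *Slc16a7* (MCT2) held 24.2% ± 1.64 and 26.1% ± 3.46, and *Slc16a1* (MCT1) 7.76% ± 1.47 and 9.03% ± 1.61.

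The 10 genes have 99 transcripts in the files, of which 82 were tested. *Hk2*-204 was the only transcript called by edgeR without pairs, and 12 had an unadjusted p under 0.05, of which 9 were lower in Drp1 KO BMDMs, beside 4.8% of all transcripts tested that had such a p and were lower. DESeq2 called 5 of them, against 3.86% of all transcripts: *Hk2*-204, *Pkm*-202 and *Ldha*-213 were lower, and *Ldha*-215 and a minor *Aldoa* transcript of 796 bases higher. *Ldha*-213, a short coding transcript of 685 bases, was at 129.7, 129 and 76.0 TPM in WT and 59.0, 33.4 and 39.4 TPM in Drp1 KO libraries. Its log2 fold change of -1.22 (SE 0.33, adjusted p = 0.234, edgeR) stood against 0.19 (SE 0.12, adjusted p = 0.674, edgeR) for *Ldha*-202, which held 66.4% of the *Ldha* TPM in WT and 72.8% in Drp1 KO BMDMs. *Pfkl*-201, with 89.4% of the *Pfkl* TPM in WT, had a log2 fold change of -0.29 (SE 0.089, adjusted p = 0.305, edgeR), close to that of its gene. Processed copies elsewhere in the genome, 6 of *Aldoa*, 4 of *Pgk1*, 8 of *Pkm* and 13 of *Ldha* with at least 90% identity over 300 bases or more, held at most 0.158% as many reads as their gene in any library. No such copy was found for the other 6 genes.

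Library by library, for 8 of the 10 genes the Drp1 KO library had the lower CPM in all 3 pairs with the same number, and for *Slc2a1* and *Ldha* it had the higher CPM in all 3, although *Ldha* was lower in all 3 in TPM. Over all genes tested, 22.1% were lower in all 3 pairs. Of the 8 macrophage markers, *Csf1r* and *Mertk* were lower (log2 fold changes -0.52 and -0.52, adjusted p = 0.0340 and 0.0236, edgeR) and *Fcgr1* higher (1.34, adjusted p = 0.000322, edgeR) in Drp1 KO BMDMs, and their part in the levels of the 10 genes was not tested.

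The rest of the pathway was followed in 8 lists with 90 genes, 89 of them tested. Of these, 5 passed an adjusted p of 0.05 in edgeR's test, all lower in Drp1 KO BMDMs, against 1.06% of all genes called lower, and they lay in the lists for pyruvate and for glycogen. The mitochondrial pyruvate carrier, which brings pyruvate into the matrix, was lower in both subunits. *Mpc1* was at 74.2, 99.8 and 82.2 CPM in WT and 53.4, 61.2 and 41.3 CPM in Drp1 KO libraries (log2 fold change -0.72, SE 0.16, adjusted p = 0.0354, edgeR). *Mpc2* was at 29.7, 33.1 and 37.9 CPM in WT and 23.3, 21.6 and 20.5 CPM in Drp1 KO libraries (log2 fold change -0.63, SE 0.12, adjusted p = 0.0208, edgeR). Neither gene had a Drp1 KO level within the WT range. The others were glycogen genes. *Gbe1*, the branching enzyme, was at 175, 214 and 214 CPM in WT and 142, 132 and 148 CPM in Drp1 KO libraries (log2 fold change -0.52, SE 0.11, adjusted p = 0.0285, edgeR). *Pgm1*, which interconverts glucose 1-phosphate and glucose 6-phosphate, was at 272, 241 and 234 CPM in WT and 198, 180.0 and 179 CPM in Drp1 KO libraries (log2 fold change -0.42, SE 0.098, adjusted p = 0.0452, edgeR). All 5 calls were lost when library 2 or 3 of WT or library 3 of Drp1 KO was left out, and all but that of *Mpc1* without library 2 of Drp1 KO, although none of these 5 genes changed direction. *Pgm1* also lost its call without WT library 1 (adjusted p = 0.0776, edgeR) and with the GC correction (0.0713). Length-scaled counts took the calls of *Mpc2* (log2 fold change -0.60, adjusted p = 0.0847, edgeR), *Pgm1* (-0.43, 0.0781) and *Gbe1* (-0.31, 0.435), of which *Gbe1* alone also had a clearly smaller fold change. The paired fit called 21 of the 89 genes, 15 lower and 6 higher, beside 12% of all genes.

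In the list of other glycolysis enzymes, 0 of 16 tested genes passed (edgeR), 1 had an unadjusted p under 0.05, 11 were lower and 5 higher, and the median log2 fold change was -0.14. The smallest p was that of *Eno1*, the enolase, at 1537, 1448 and 1515 CPM in WT and 1308, 1145 and 1237 CPM in Drp1 KO libraries (log2 fold change -0.29, unadjusted p = 0.0147, adjusted p = 0.164, edgeR), and it was called in the paired fit (adjusted p = 0.0213, edgeR). *Gpi1*, the glucose phosphate isomerase, followed with -0.21 (adjusted p = 0.339, edgeR), and *Adpgk*, a kinase that phosphorylates glucose with ADP, with 0.20 (adjusted p = 0.457, edgeR). Glycogen enzymes had the lowest median of the 8 lists, -0.29, with 7 of 9 genes lower and 6 of them under all WT levels, beside 10.3% of all genes. In the list for the fate of pyruvate and lactate, 7 of 15 genes were lower and 8 higher, with a median of 0.01, and *Ldhb* had the next smallest p after the pyruvate carrier. In the list of regulators of glycolysis, 0 of 9 passed (edgeR), with unadjusted p under 0.05 for 2 and a median of 0.04. *Tigar*, a fructose 2,6-bisphosphatase, had 0.52 (adjusted p = 0.145, edgeR), *Pfkfb4*, which makes that sugar phosphate, -0.27 (0.254), and *Txnip*, an inhibitor of glucose uptake, 0.08 (0.765). Of these, the paired fit called *Tigar* (adjusted p = 0.0387, edgeR).

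**Figure D5:**
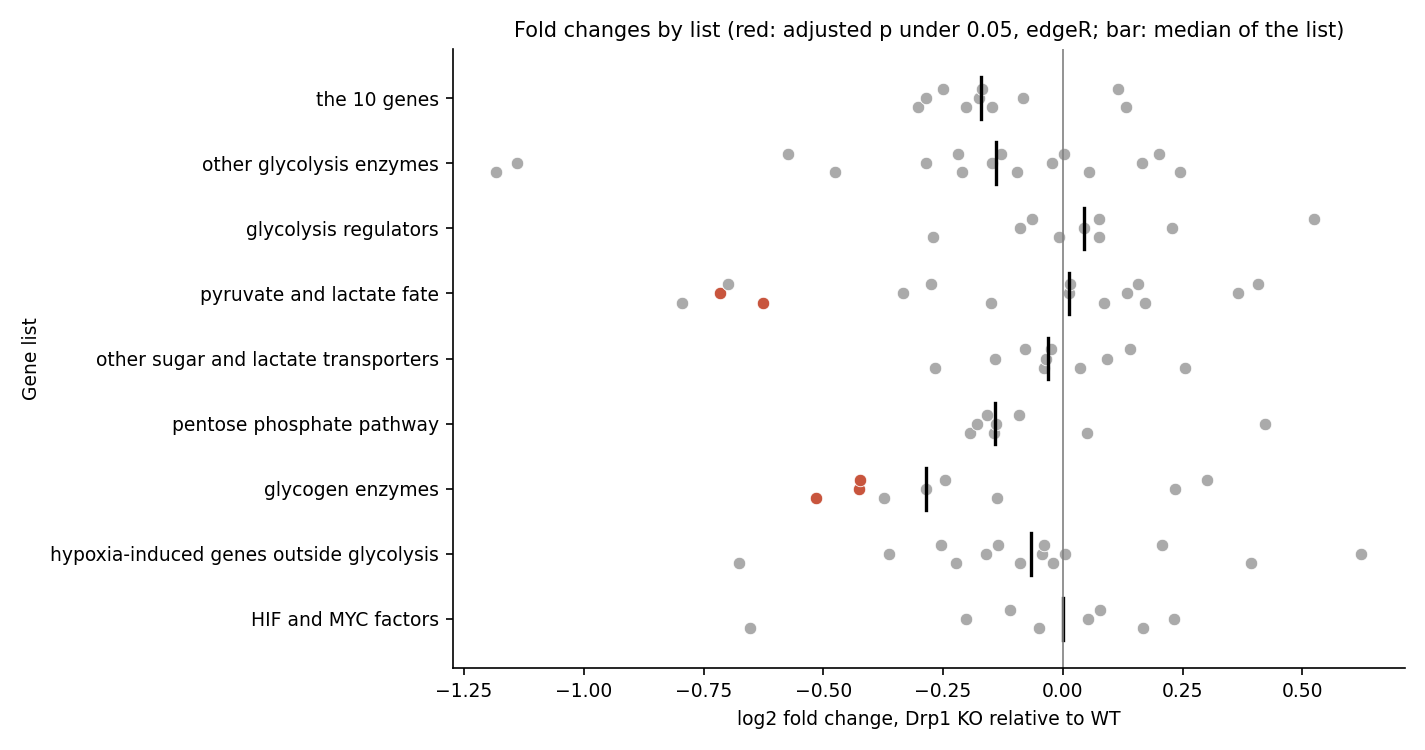
Log2 fold change of Drp1 KO relative to WT (x axis) for the 10 genes and for each tested gene of 8 lists (y axis), with red points for an adjusted p under 0.05 (edgeR) and black bars for the median of the list. The red points, among them *Mpc1* and *Mpc2* in the pyruvate list and *Gbe1* and *Pgm1* in the glycogen list, all lie to the left of 0. The leftmost point of the list of other glycolysis enzymes is *Pklr*, which had at most 23 counts in a group.

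The list of sugar and lactate transporters other than *Slc2a1* and *Slc16a3*, which also includes *Bsg*, held 10 genes. Of these, 0 passed (edgeR), 1 had an unadjusted p under 0.05, 6 were lower and 4 higher. The smallest p was that of *Bsg* (basigin), the chaperone that carries MCT1 and MCT4 to the cell surface, with a log2 fold change of -0.27 (unadjusted p = 0.0355, adjusted p = 0.257, and 0.0480 in the paired fit, edgeR). *Slc2a9*, a urate and hexose transporter, had 0.26 (adjusted p = 0.383, edgeR) and *Slc2a3* 0.14 (0.727). In the pentose phosphate pathway, which branches off at glucose 6-phosphate, 0 of 8 passed (edgeR), 1 had an unadjusted p under 0.05, 6 were lower and the median was -0.14. *Rpe*, a ribulose phosphate epimerase, was the gene with that p, at 45.5, 37.1 and 37.0 CPM in WT and 51.8, 56.8 and 51.5 CPM in Drp1 KO libraries (log2 fold change 0.42, adjusted p = 0.0751, edgeR). It was called in the paired fit (adjusted p = 0.0136, edgeR) and by DESeq2 (0.0323). *Pgd* and *G6pdx*, its dehydrogenases, had -0.19 (adjusted p = 0.422, edgeR) and -0.14 (0.487).

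Genes that hypoxia induces outside glycolysis gave 0 of 14 past an adjusted p of 0.05 (edgeR), 4 with an unadjusted p under 0.05 beside 16.4% of all genes, 10 lower and 4 higher, with a median of -0.07. *P4ha2*, a collagen prolyl hydroxylase, had a log2 fold change of -0.36 (adjusted p = 0.0800, edgeR), *Ddit4*, an inhibitor of mTORC1, 0.62 (0.139) and *Adm*, adrenomedullin, -0.68 (0.158). All 3 were called in the paired fit, which called 12% of all genes, in these directions (adjusted p = 0.0103, 0.000906 and 0.000777, edgeR). Among 8 genes of the HIF and MYC factors and their regulators, 0 passed (edgeR), 1 had an unadjusted p under 0.05 and the median was 0.00091. *Hif1a* was at 281 to 362 CPM in WT libraries and 302 to 385 CPM in the Drp1 KO ones (log2 fold change 0.05, adjusted p = 0.913, edgeR). *Epas1*, which encodes HIF-2α, had -0.65 (adjusted p = 0.253, and 0.0282 in the paired fit, edgeR), *Vhl* 0.23 (0.392) and *Egln1*, an oxygen-sensing hydroxylase, -0.20 (0.397).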

How the data were processed

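RNA-seq libraries of WT and Drp1 KO BMDMs after HSS, 3 of each, were analysed. The labels give TRIzol and 2.1% oxygen, and the study's methods differ from them in the extraction kit, the oxygen and the share of L929 medium. Libraries were made with a stranded mRNA kit. The authors ran kallisto (0.46.1 in the submitters' processing notes) on Ensembl cDNA of GRCm39, whose release is not given in the sources used here, and deposited an estimated count, not scaled between libraries, for each transcript. The TPM values were deposited by the authors beside them. The notes also name DESeq2 1.44.0.

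Of 116873 transcripts, 116159 (99.4%) were matched by identifier to GENCODE vM39 and the rest, with 0.542% to 0.575% of the counts, were left out. Counts were added per gene and rounded. The test was edgeR 4.0.16 (R 4.3.3), quasi-likelihood, TMM, at least 10 counts in total, with no covariate and Benjamini-Hochberg adjustment over all genes. Each SE was derived from the estimate and the F statistic of its test, and intervals are 95%. Alternatives used DESeq2 1.42.0, limma 3.58.1 (voom), other normalizations, filters, length-scaled counts, GC correction, a replicate block and leaving out each library. The edgeR gene fit without pairs was tested on simulated counts, and the other steps were not. Tables were made with Python 3.11.15 and pandas 2.3.3.

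The 10 genes, the 8 pathway lists and the marker lists were chosen with earlier results of these data known. In each list, the genes called and up to 3 with the smallest p are named. Some genes that this rule would name are not reported here. *Hif1a*, the markers given and the transcripts were named or tested after their values were seen. Same-numbered libraries were treated as pairs because each of their correlations (0.510, 0.204 and 0.298, over 12248 genes) exceeded 0.1. This comes from the data and not from a label, and WT library 2 correlated more with Drp1 KO library 3 (0.326) than with library 2. Between libraries of a group, a chi-square statistic per degree of freedom of 10.4 to 43.9 showed no copies. At these depths the floor of 3 counts is far under the levels of the 10 genes. Protein sequences were not used here.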

Additional observations from a re-analysis of the deposited data

How the results depend on the processing

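The number of the 10 genes past an adjusted p of 0.05 was 0 by edgeR and by 14 of 16 alternatives. It was 1 by DESeq2 and 3 with the replicate block, against 6.24% and 12% of all genes, and 0 with each library left out. By the study's criteria the number was 0, against 12.7% of all genes. It was 0 to 2 with a library left out (*Pfkl* without WT library 2, *Hk1* without WT library 3, *Aldoa* and *Hk1* without Drp1 KO library 1). The share of all genes was not taken for the fits with a library left out, so these counts have no background to be read against. Over the 10 genes, the median log2 fold change ran from -0.28 without Drp1 KO library 1 to -0.12 without Drp1 KO library 3, and 7 to 9 of them were lower. With a library left out, *Hk2* ran from -0.46 to 0.18, with 0.050 without Drp1 KO library 3, and *Slc2a1* from -0.10 to 0.29. The other 8 genes kept their direction under all 16 alternatives. Added after the data were seen, the same settings gave 12 (DESeq2), 10 (no filter beyond 1 count), 3 (length-scaled counts), 21 (replicate block) and 14 (block with GC correction) of the pathway genes called, and 0 to 7 with a library left out. Of all genes, DESeq2 called 6.24%, the block 12% and the block with GC correction 10.8%. For the other settings named here the share of all genes was not taken. For the transcripts of the 10 genes the number called was 5 by DESeq2, against 3.86% of all transcripts. It was 0 with the replicate block, against 0% of all transcripts, and 0 to 1 with a library left out. The log2 fold change of *Hk2*-204 was -3.31 with the block (adjusted p = 0.0710, edgeR) and -3.46 to -3.11 with a library left out. The cause of these changes was not tested, and fits with a library left out also have fewer samples. With the block, *Hk1*, *Pfkl* and *Pkm* were the only genes of the 10 whose call changed. With 3 libraries a group, exact permutation tests cannot go under 0.1. How reads shared by transcripts were divided is an estimate.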
